A study of Mus musculus with 60 samples.

Results

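Cd68 and 7 further genes of the lysosome, Lamp1, Lamp2, Ctss, Ctsf, Lgmn, Grn and Man2b1, were followed in 3 brain regions of tumor-bearing and vehicle injected mice, 8 genes of the 770 assayed. They were picked by symbol. Cd68 was chosen on its own values, because its hippocampal tumor difference changed sign between the dark and the light phase. How the other 7 were chosen is not recorded. They were treated as genes of the same organelle, chosen with earlier results of these data known. All mice were female Balb/C, 13 weeks old. Tumor mice had received 67NR cells, a line grown from a single mouse mammary carcinoma that does not metastasize, in the inguinal mammary glands, and vehicle mice had received the culture medium (DMEM) alone. Brains were collected 25 days later, after perfusion with saline, at mid-dark (19 h after lights on) or at mid-light (7 h after lights on). Hippocampus, hypothalamus and brain stem of each of 20 mice were assayed, 5 mice per group, with the nanoString nCounter Mouse Neuroinflammation Panel, in which gene-specific barcoded probes are counted without amplification. Values for 56 of the 60 listed samples were analysed. Each group held 5 mice, except vehicle mid-dark (3) and vehicle mid-light (4) in hypothalamus and vehicle mid-dark (4) in brain stem. All values are on the log2 scale, and a difference of 1 is a doubling.

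Lysosomes are acidic, membrane-bound compartments in which hydrolases break down material delivered by endocytosis, phagocytosis and autophagy. Every brain cell has them, and microglia, the resident phagocytes, are known for a large lysosomal compartment that holds CD68, a heavily glycosylated membrane protein related to the LAMP family. The members fall into 4 roles: Cd68 as the phagocyte protein; Lamp1 and Lamp2, which coat the lysosomal membrane; the proteases Ctss (cathepsin S, also used in antigen processing), Ctsf (cathepsin F) and Lgmn (legumain, which cuts after asparagine); and Grn (progranulin, a secreted and lysosomal regulator of hydrolases) with Man2b1 (lysosomal alpha-mannosidase, which trims glycoprotein sugars). TFEB and related factors bind an E-box, CACGTG, in the promoters of many lysosomal genes.

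Promoters of the members are shown because this E-box separates some of them. RefSeq promoter windows (GRCm38.p6, 250 bases before to 50 after a start) were found for 8 of 8 members, with 9 starts. CACGTG, which reads the same on both strands, was present in the windows of 3 members, Lamp1, Lgmn (1 of its 2 starts) and Ctsf, and in 7.15% of all 32851 windows. It was not among the letters of the windows of Cd68, Lamp2, Ctss, Grn and Man2b1. The longer TCACGTGA was in no member and in 0.974% of all windows. Lamp1 held 4 copies, 61, 45, 28 and 15 bases before its start. Only 8 windows of the 32851, 0.0244%, held 4 or more. Lamp1 is shown whole beside Cd68 as the window with the most copies and the window of the gene that led the selection, and 60 bases around the match are shown for Ctsf and Lgmn. Capitals mark CACGTG, and each sequence reads 5′ to 3′ along the gene.
Lamp1 promoter, chr8:13158911-13159210, plus strand: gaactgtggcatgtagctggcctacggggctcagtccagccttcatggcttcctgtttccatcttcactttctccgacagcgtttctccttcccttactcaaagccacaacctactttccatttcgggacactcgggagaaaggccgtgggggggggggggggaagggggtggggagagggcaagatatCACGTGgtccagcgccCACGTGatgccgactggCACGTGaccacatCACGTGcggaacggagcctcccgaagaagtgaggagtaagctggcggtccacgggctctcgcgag
Cd68 promoter, chr11:69666121-69666420, minus strand: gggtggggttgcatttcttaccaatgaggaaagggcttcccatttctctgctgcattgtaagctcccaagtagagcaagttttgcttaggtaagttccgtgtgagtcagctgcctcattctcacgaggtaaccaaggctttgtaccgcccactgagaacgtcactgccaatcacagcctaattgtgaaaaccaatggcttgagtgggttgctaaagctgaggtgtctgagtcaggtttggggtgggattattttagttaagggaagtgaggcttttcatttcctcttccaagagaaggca
Ctsf match, chr19:4855059-4855118, plus strand: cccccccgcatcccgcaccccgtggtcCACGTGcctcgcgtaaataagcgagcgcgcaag
Lgmn match, chr12:102439109-102439168, minus strand: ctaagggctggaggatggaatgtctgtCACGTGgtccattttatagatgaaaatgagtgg
The letters say nothing of binding, which was not measured.

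Over all samples, the sharpest differences among the members were between brain regions, and Cd68 ran opposite to most of the others. Cd68 was highest in hippocampus, whereas Lamp1, Lamp2, Ctss, Ctsf and Lgmn were lowest there. Region differences were tested in a model with all 12 groups, weighted equally, and mouse as a random block, since the 3 regions came from the same animals; adjusted p values are from limma, over all 770 genes. In each of the 3 region comparisons 7 of the 8 members passed an adjusted p of 0.05. That share is near the background, since 76.6% of all genes passed between hippocampus and brain stem, 71.7% between hippocampus and hypothalamus and 66.5% between hypothalamus and brain stem. The size and direction of each member are therefore given rather than the count.

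**Figure D1:**
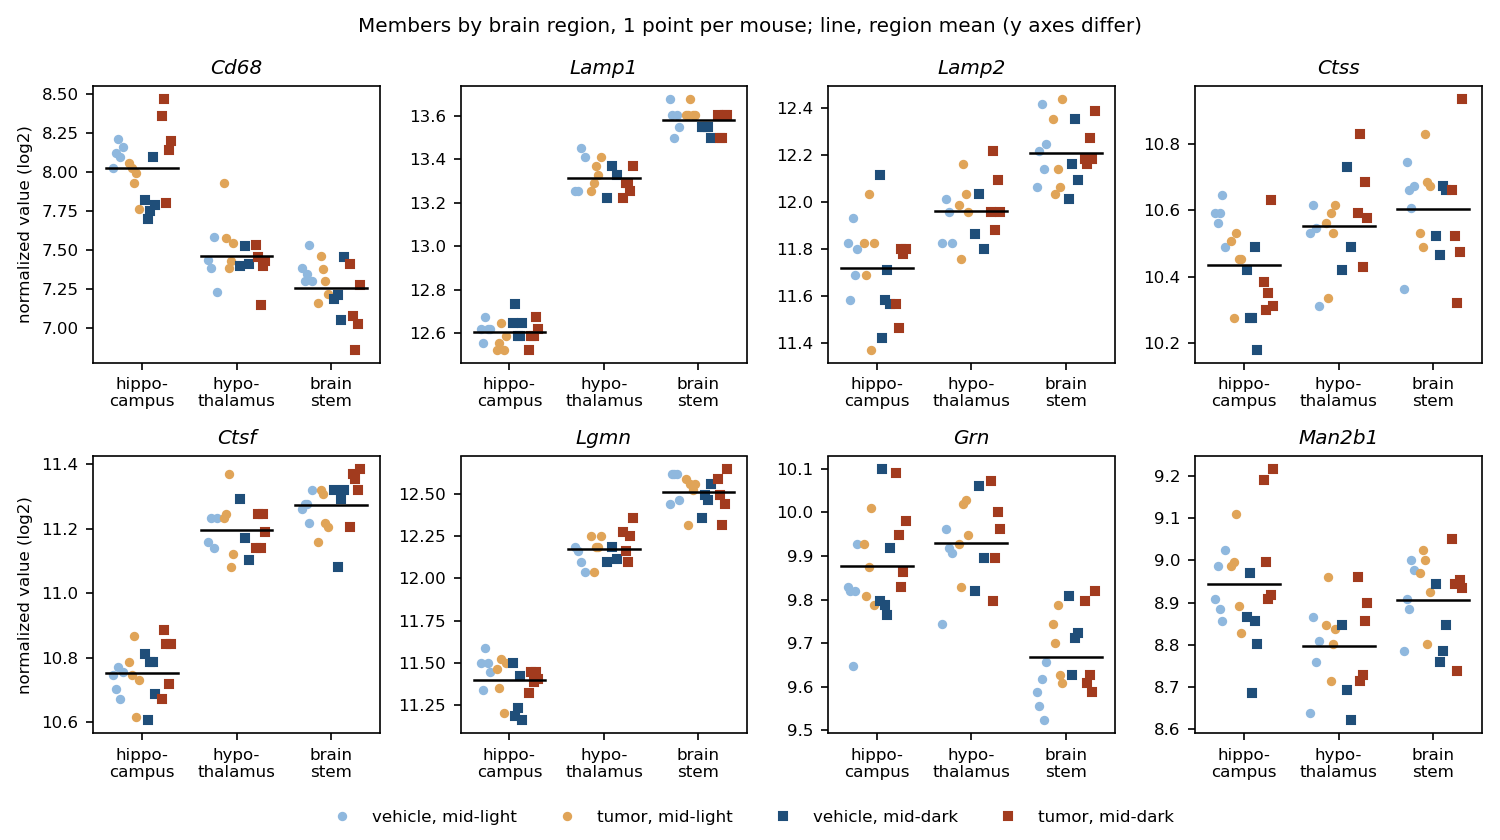
Normalized log2 value of each member (y axes differ between panels) by brain region, with 1 point per mouse, colour and shape for tumor status and phase, and a line at the region mean. Cd68 falls from hippocampus to brain stem, and Lamp1, Ctsf and Lgmn rise without any overlap between hippocampus and either other region.

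Cd68 in hippocampus ran from 7.70 to 8.47 (median 8.04, n = 20 mice). In hypothalamus it ran from 7.15 to 7.93 (median 7.43, n = 17), and in brain stem from 6.86 to 7.53 (median 7.30, n = 19). Every hippocampal value lay above every brain stem value, and the hypothalamic values met the hippocampal ones through 1 sample, that of tumor mid-light mouse 1, at 7.93. The choice of Cd68 rested on differences between its hippocampal groups. The region tests average those groups but use the same hippocampal values, which limits the p values below. Cd68 was 1.70-fold higher in hippocampus than in brain stem (log2 difference 0.77, standard error 0.05, adjusted p = 4.05e-20) and higher in 19 of 19 mice with both regions. It was 1.48-fold higher in hippocampus than in hypothalamus (0.57, standard error 0.05, adjusted p = 1.34e-14), in 17 of 17 mice. Between hypothalamus and brain stem the difference was smaller, 0.20 (standard error 0.05, adjusted p = 0.000479), with the hypothalamus higher in 15 of 16 mice. This last call was lost when 12 reference genes of the panel were used for scaling (0.06, adjusted p = 0.291).

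The membrane glycoproteins had the reverse order. Lamp1 ran from 12.52 to 12.73 in hippocampus (median 12.60), from 13.22 to 13.45 in hypothalamus (median 13.29) and from 13.50 to 13.68 in brain stem (median 13.61). No range touched another, and all 16 mice with values in hypothalamus and brain stem were higher in brain stem. Lamp1 in hippocampus stood at 51.0% of its brain stem level (log2 difference -0.97, standard error 0.02, adjusted p = 1.34e-39) and at 61.1% of its hypothalamic level (-0.71, standard error 0.02, adjusted p = 9.45e-33). The 56 Lamp1 values took only 18 distinct levels, as quantile normalization gives genes of equal rank the same value, so its spread within groups, an SD of 0.05 in hippocampus, reflects ranks. Lamp2, which shares its fold with Lamp1 and is needed for autophagosome clearance, spread more widely, from 11.37 to 12.12 in hippocampus, 11.76 to 12.22 in hypothalamus and 12.01 to 12.44 in brain stem. It was lower in hippocampus than in brain stem by a log2 difference of -0.48 (standard error 0.05, adjusted p = 3.28e-12), in 18 of 19 mice, although the ranges overlapped.

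Among the proteases, Lgmn had the widest regional range of all 8 members. It ran from 11.16 to 11.59 in hippocampus (median 11.43), from 12.04 to 12.36 in hypothalamus (median 12.18) and from 12.32 to 12.65 in brain stem (median 12.52). Lgmn in hippocampus was at 46.3% of the brain stem level (log2 difference -1.11, standard error 0.03, adjusted p = 1.08e-33) and at 58.7% of the hypothalamic level (-0.77, standard error 0.03, adjusted p = 4.33e-26). Every one of the 19 mice with both regions was lower in hippocampus than in brain stem. Ctsf ran from 10.61 to 10.89 in hippocampus, from 11.08 to 11.37 in hypothalamus and from 11.08 to 11.38 in brain stem, so that the hippocampus stood alone and the other regions overlapped over nearly their whole range. Its difference was -0.52 against brain stem (standard error 0.02, adjusted p = 1.22e-24) and -0.08 between hypothalamus and brain stem (standard error 0.03, adjusted p = 0.00831). Ctss differed least among the 3 proteases. It ran from 10.18 to 10.65 in hippocampus and from 10.32 to 10.94 in brain stem, a difference of -0.17 (standard error 0.04, adjusted p = 0.000318), and 4 of 19 mice went the other way. Ctss between hippocampus and hypothalamus (-0.11, adjusted p = 0.0194) did not hold under reference gene scaling (-0.02, adjusted p = 0.70) or without mouse 7 (adjusted p = 0.0544) or mouse 8 (adjusted p = 0.0952), and between hypothalamus and brain stem it did not pass (-0.06, 95% confidence interval -0.15 to 0.03), but did under reference gene scaling (-0.19, adjusted p = 0.00148).

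Grn and Man2b1 followed neither order. Grn was lowest in brain stem, where it ran from 9.52 to 9.82 (median 9.63), against 9.65 to 10.10 in hippocampus (median 9.85) and 9.74 to 10.07 in hypothalamus (median 9.93). Its log2 difference from brain stem was 0.20 in hippocampus (standard error 0.03, adjusted p = 3.15e-08) and 0.25 in hypothalamus (standard error 0.03, adjusted p = 1.33e-09), and all 16 mice with the latter pair were higher in hypothalamus. Hippocampus and hypothalamus were not told apart for Grn (-0.05, 95% confidence interval -0.11 to 0.01). Man2b1 was lowest in hypothalamus, from 8.62 to 8.96 (median 8.81), against 8.69 to 9.22 in hippocampus and 8.74 to 9.05 in brain stem. Its hippocampal level exceeded the hypothalamic level by 0.16 (standard error 0.03, adjusted p = 1.73e-05), in 16 of 17 mice, and hippocampus and brain stem were not told apart (0.04, 95% confidence interval -0.02 to 0.10).

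**Figure D2:**
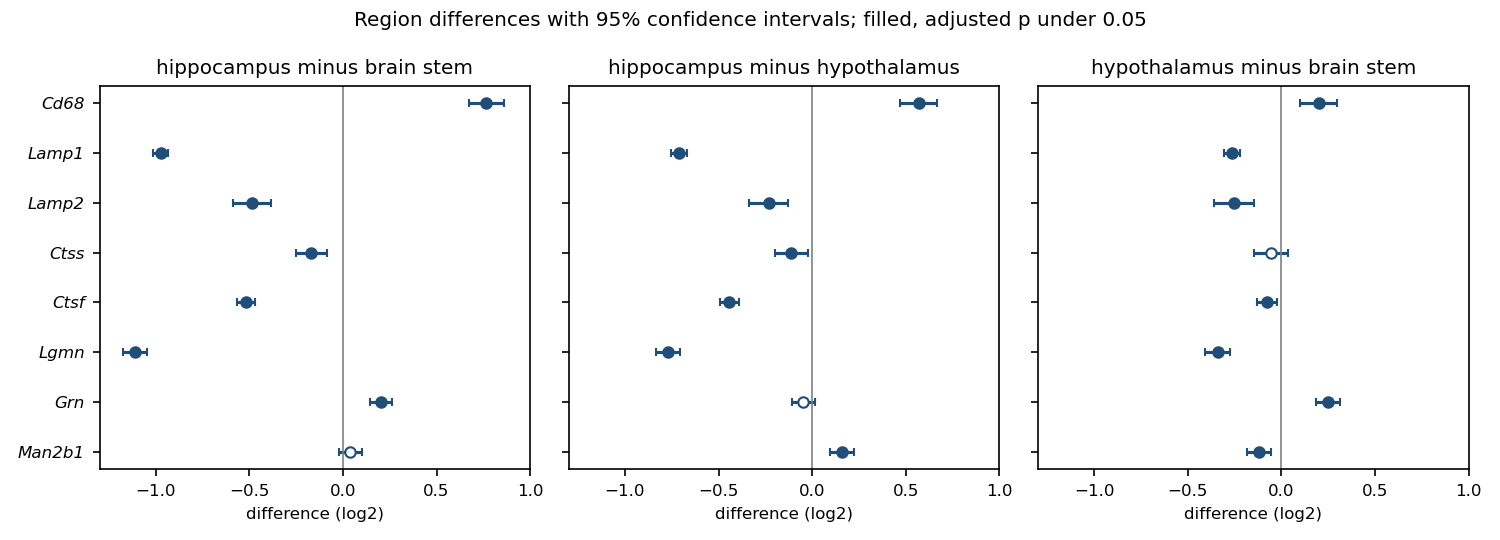
Log2 difference between regions for each member (x axis) with its 95% confidence interval, in 3 panels for the 3 pairs of regions; filled points passed an adjusted p of 0.05. Against brain stem, Cd68 in hippocampus lies at 0.77 while Lamp1 lies at -0.97 and Lgmn at -1.11.

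Counted as pairs of regions whose values did not overlap at all, 4 members (Cd68, Lamp1, Ctsf and Lgmn) were apart between hippocampus and brain stem, where 26.2% of all genes were. Between hippocampus and hypothalamus 3 members (Lamp1, Ctsf and Lgmn) were apart, against 19.7% of all genes, and between hypothalamus and brain stem 1 (Lamp1), against 15.6%. The median difference over the 8 members was -0.33 for hippocampus minus brain stem (all genes -0.03), -0.17 for hippocampus minus hypothalamus (all genes -0.05) and -0.10 for hypothalamus minus brain stem (all genes 0.02). Reference gene scaling moved the median of all genes for hypothalamus minus brain stem to -0.11, and the calls there from 278 higher and 234 lower to 178 and 334. For hippocampus minus hypothalamus it moved them from 233 higher and 319 lower to 281 and 233.

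The other lysosomal genes did not share 1 regional order either. Of a list of 57, 15 were on the panel. Between hippocampus and brain stem 5 were higher and 7 lower in hippocampus, with a median difference of 0.01. Subunits of the proton pump that acidifies lysosomes went in opposite directions: Atp6v1a was higher in hippocampus (0.47, standard error 0.03, adjusted p = 1.26e-18) and Tcirg1 lower (-0.39, standard error 0.04, adjusted p = 6.27e-13). Vamp7, a SNARE of late endosome fusion, was lower (-0.28, adjusted p = 4.53e-11), as was the aspartic protease Ctse (-0.74, adjusted p = 1.46e-08). Ctse values were low, from 3.73 to 5.55 in hippocampus and 4.88 to 5.72 in brain stem, beside sample medians of 8.07 to 8.09. Plekhm1, an adaptor for lysosome fusion, was higher (0.31, adjusted p = 1.06e-08).

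Between hippocampus and hypothalamus 3 of the 15 were higher and 9 lower in hippocampus. Atp6v1a was again higher (0.51, adjusted p = 2.94e-19). Tcirg1 (-0.49, adjusted p = 1.72e-15), the thiol reductase Ifi30 (-0.39, adjusted p = 7.84e-10), the beta-glucuronidase Gusb (-0.32, adjusted p = 2.15e-08) and the ESCRT ATPase Vps4a (-0.16, adjusted p = 2.6e-07) were lower. With reference gene scaling the split was 5 higher and 5 lower. Between hypothalamus and brain stem 7 were higher and 3 lower in hypothalamus, but 0 and 6 with reference gene scaling, so no direction is given for that list. Without that scaling, among its smallest p values were those of Vps4b (0.19, adjusted p = 6.69e-07), the mannose 6-phosphate receptor Igf2r (0.20, adjusted p = 1.54e-05), Ifi30 (0.24, adjusted p = 2.71e-05), Vamp7 (-0.15, adjusted p = 8.28e-05) and the autophagosome tether Epg5 (0.13, adjusted p = 0.000131). Under reference gene scaling Vps4b, Igf2r, Ifi30 and Epg5 were not called higher in hypothalamus.

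Cell type markers also differed between the regions. Of all 770 genes, 269 were called higher and 321 lower in hippocampus than in brain stem, and 233 higher and 319 lower than in hypothalamus. Of 13 microglial markers, 12 were called higher and 1 lower in hippocampus than in brain stem, with a median difference of 0.36, and 11 higher and 0 lower than in hypothalamus, with a median of 0.24. Of 6 oligodendrocyte markers, 0 were higher and 6 lower than in brain stem, with a median of -1.45, and 1 higher and 5 lower than in hypothalamus, with a median of -0.30. Of 5 astrocyte markers, 1 was higher and 3 lower than in brain stem, with a median of -0.47, and 0 higher and 5 lower than in hypothalamus, with a median of -0.49. Of 4 endothelial markers, 0 were higher and 4 lower than in brain stem, with a median of -0.22, and 0 higher and 1 lower than in hypothalamus, with a median of -0.06. Neuron markers, 5 in number, had 3 higher and 2 lower than in brain stem (median 0.50), and 4 higher and 1 lower than in hypothalamus (median 0.44). Perivascular macrophage markers, also 5, had 0 higher and 1 lower than in brain stem (median 0.05). Against hypothalamus they had 0 higher and 0 lower (median 0.11). RNA purity differed between the regions as well. The 260/230 absorbance ratio ran from 2.26 to 2.42 in hippocampus, above all hypothalamic samples (0.44 to 2.19), and from 1.44 to 2.34 in brain stem, and the 260/280 ratio went down to 1.34 in brain stem and 1.79 in hippocampus. The part of the markers and of RNA purity in the differences of the members was not tested. In whole tissue RNA, fewer cells of a type and less RNA per cell cannot be told apart. The glutamate transporters set the hippocampus apart: Slc17a7, of forebrain neurons, ran from 12.65 to 13.29 in hippocampus, from 4.85 to 9.05 in hypothalamus and from 9.52 to 10.63 in brain stem. Slc17a6 ran from 7.20 to 10.06 in hippocampus, from 13.01 to 13.41 in hypothalamus and from 12.46 to 13.04 in brain stem, so that it did not separate the last 2 regions. Within a region, samples correlated at 0.974 or more over the panel, but the choroid plexus marker Ttr was very uneven. It ran from 5.36 to 14.71 in hippocampus and from 6.49 to 13.77 in brain stem, against 4.33 to 5.34 in hypothalamus. The part of choroid plexus tissue in the differences of the members was not tested.

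The values of Cd68 in hippocampus at the 2 times of day chose this gene, and they are given as a description without a test. At mid-dark, tumor mice 3, 7, 11, 19 and 23 had 8.36, 8.47, 7.80, 8.14 and 8.20, and vehicle mice 4, 8, 12, 28 and 32 had 7.82, 7.70, 7.75, 8.098 and 7.79. Most tumor mice lay above the vehicle mice, but mouse 11 lay among them. At mid-light, tumor mice 1, 5, 9, 13 and 29 had 8.06, 8.03, 7.93, 7.99 and 7.76, and vehicle mice 2, 6, 10, 22 and 30 had 8.03, 8.12, 8.21, 8.098 and 8.16. Here the vehicle mice were the higher, and the groups overlapped by mice 1, 2 and 5. The tumor minus vehicle difference was 0.36 at mid-dark and -0.17 at mid-light, and the first minus the second was 0.53. Of 769 genes, 36 had a larger size of this last value in hippocampus.

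**Figure D3:**
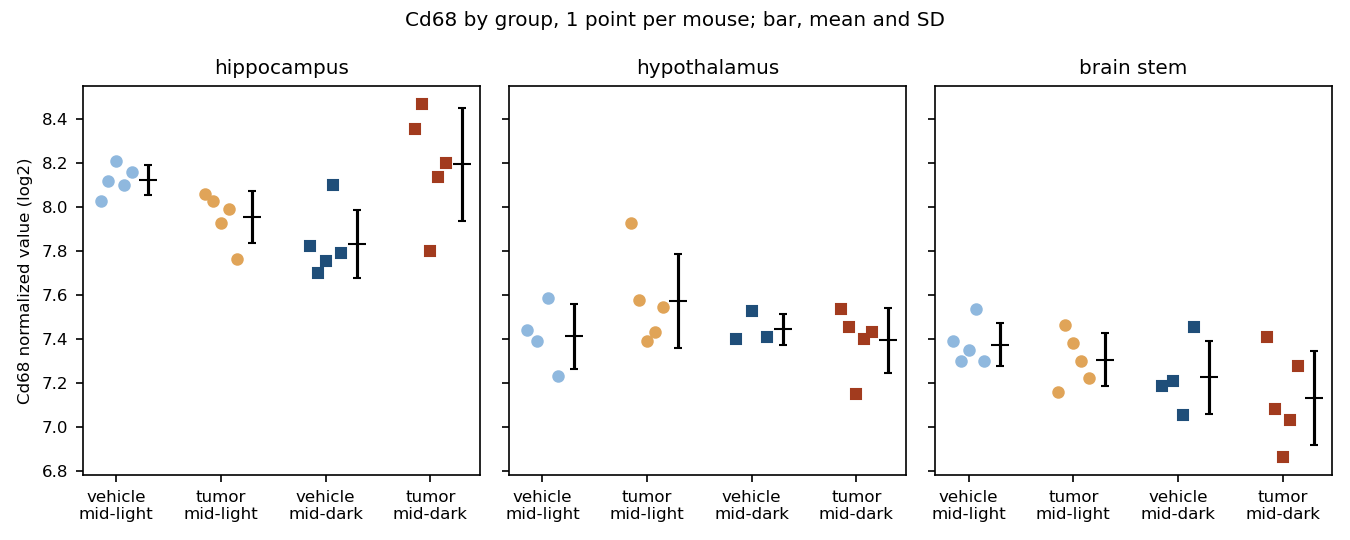
Cd68 log2 value (y axis) in the 4 groups of each brain region, 1 point per mouse, with the group mean and SD as a bar beside the points. In hippocampus the group means run from 7.83 (vehicle mid-dark) to 8.19 (tumor mid-dark), and in the other regions the groups lie closer together.

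In order, the hippocampal group means of Cd68 were 8.19 ± 0.25 for tumor mid-dark, 8.12 ± 0.07 for vehicle mid-light, 7.95 ± 0.12 for tumor mid-light and 7.83 ± 0.16 for vehicle mid-dark (SD, n = 5 mice each). Each group overlapped its neighbour in this order. Vehicle mice were lower at mid-dark than at mid-light by -0.29, and tumor mice higher by 0.24.

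Microglial markers were read in the same hippocampal samples, with all 13 on the panel and 0 at the lowest value. Their values were summed on the linear scale, so probes with high values weigh most. The log2 of this sum ran from 13.25 to 13.51 in tumor mid-dark and from 13.12 to 13.36 in vehicle mid-dark. At mid-light it ran from 13.23 to 13.35 in tumor mice and from 13.30 to 13.51 in vehicle mice. The same difference between phases was above 0 for 12 of the 13, with a median of 0.20 against 0.01 over all genes. At an adjusted p of 0.05, 0 of the 13 passed, as did 0.0% of all genes. An unadjusted p under 0.05 was found for 3 of the 13 and for 6.11% of all genes. Markers of perivascular macrophages, another Cd68-bearing cell, were measured by 5 genes of the list of 7, with 0 at the lowest value. Their summed level had a mean of 7.35 in tumor mid-dark (7.14 to 7.59), 7.29 in vehicle mid-dark (7.06 to 7.48), 7.29 in tumor mid-light (7.16 to 7.44) and 7.38 in vehicle mid-light (7.21 to 7.52). For the same difference between phases 0 of the 5 passed, beside 0.0% of all genes. Hippocampal RNA had 260/280 absorbance ratios of 1.79 to 2.03. The part of these in the Cd68 values was not tested.

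Cd68 in hypothalamus and brain stem was not used in choosing it. In hypothalamus at mid-dark, tumor mice 3, 7, 11, 19 and 23 had 7.53, 7.45, 7.15, 7.40 and 7.43, and vehicle mice 4, 8 and 28 had 7.40, 7.53 and 7.41. The groups overlapped, with a difference of -0.05 (95% confidence interval -0.30 to 0.20, limma adjusted p = 0.998). At mid-light, tumor mice 1, 5, 9, 13 and 29 had 7.93, 7.58, 7.39, 7.43 and 7.55, and vehicle mice 2, 6, 22 and 30 had 7.44, 7.39, 7.59 and 7.23, a difference of 0.16 (95% confidence interval -0.07 to 0.39, adjusted p = 0.962). Mouse 1, the highest, had a 260/230 absorbance ratio of 0.44, the lowest of the hypothalamic samples, and without it the difference was 0.07.

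In brain stem at mid-dark, Cd68 in tumor mice 3, 7, 11, 19 and 23 was 7.41, 7.08, 6.86, 7.03 and 7.28, and in vehicle mice 4, 12, 28 and 32 it was 7.19, 7.21, 7.05 and 7.45. The difference was -0.09 (95% confidence interval -0.31 to 0.12, limma adjusted p = 0.978), and the groups overlapped. Brain stem RNA of the tumor mid-dark mice had 260/280 ratios of 1.34 to 1.99, against 1.95 to 2.01 in the vehicle mid-dark mice, and the part of this was not tested. The mid-light difference was -0.07 (95% confidence interval -0.27 to 0.14). The difference between the phases was -0.21 in hypothalamus (95% confidence interval -0.55 to 0.12) and -0.02 in brain stem (95% confidence interval -0.32 to 0.27), beside 0.53 in hippocampus. Whether hippocampus differed from the other regions was not tested, since its value chose the gene.

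No tumor difference that was tested in a member passed the threshold, and Cd68 in hippocampus was not tested. Within region and phase, 46 values were tested, all 8 members outside hippocampus and 7 within it, and 0 passed an adjusted p of 0.05. The share of all genes that passed was 0.13% in hippocampus and 0.0% in hypothalamus, whichever the phase. For brain stem it was 0.26% in the dark and 0.78% in the light, so few genes of any kind passed. The 46 differences ran from -0.13 to 0.21, and their 95% confidence intervals lay between -0.31 and 0.39. Over the mean of both phases 0 members passed, with 0.52%, 0.26% and 1.04% of all genes in hippocampus, hypothalamus and brain stem.

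**Figure D4:**
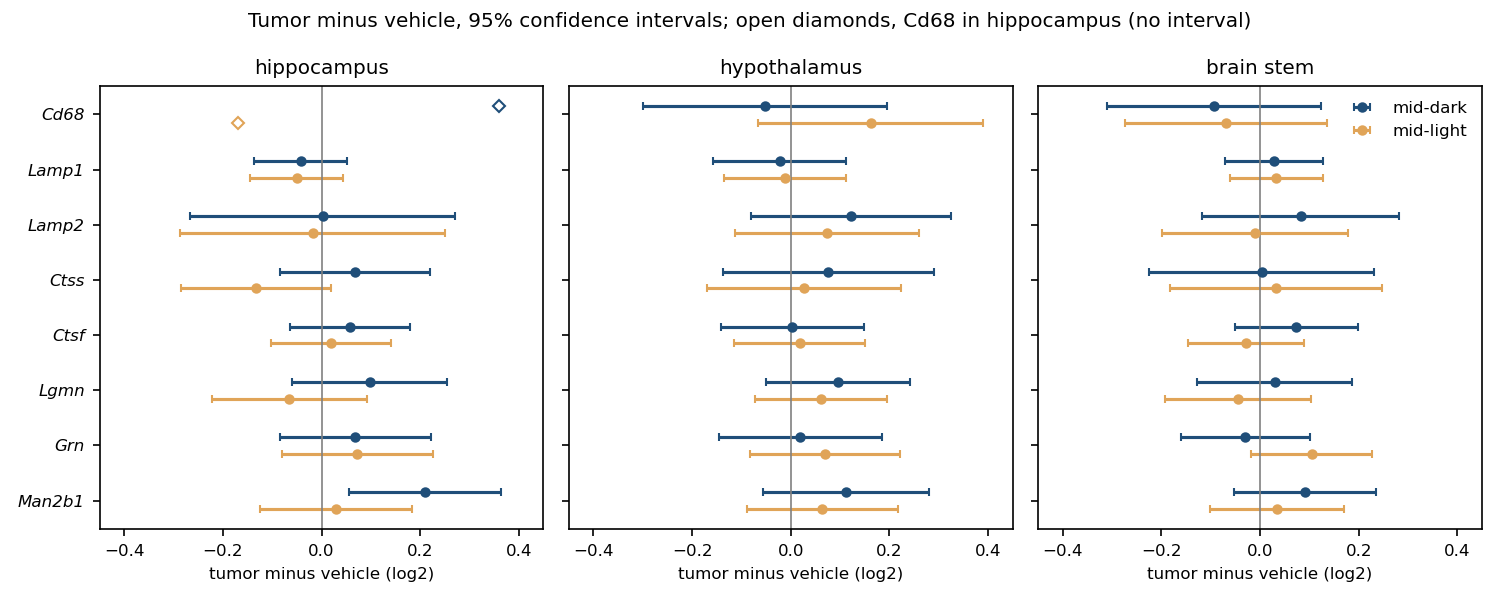
Tumor minus vehicle log2 difference (x axis) of each member at mid-dark and mid-light with 95% confidence intervals, in 3 panels for the 3 regions; open diamonds are Cd68 in hippocampus, which has no interval because it was chosen on these values. All intervals but 1 span 0, and that of Man2b1 in hippocampus at mid-dark, around 0.21, does not.

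Man2b1 came nearest. In hippocampus at mid-dark, tumor mice 3, 7, 11, 19 and 23 had 9.19, 8.995, 8.91, 8.92 and 9.22, and vehicle mice 4, 8, 12, 28 and 32 had 8.87, 8.97, 8.69, 8.86 and 8.80. The tumor mice were the higher except that vehicle mouse 8 lay above tumor mice 11 and 19. The difference was 0.21 (standard error 0.07, unadjusted p = 0.0106, limma adjusted p = 0.547), and 6.63% of all genes had an unadjusted p under 0.05 there. Over the mean of both phases it was 0.12 in hippocampus (unadjusted p = 0.0334, adjusted p = 0.678; 6.37% of all genes under 0.05).

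Over the 3 regions together, Man2b1 was 0.09 higher in tumor mice (standard error 0.03, unadjusted p = 0.0044, limma adjusted p = 0.124), where 9.48% of all genes had an unadjusted p under 0.05 and 2.34% passed the adjusted threshold. The group mean was higher in tumor than in vehicle mice in all 6 pairs of region and phase. These pairs are not independent, since the 3 regions came from the same mice. The share of all genes with the same sign in all pairs was not counted. The adjusted p ranged from 0.0401, without mouse 11, to 0.496 over the alternatives. The other 6 members tested over 3 regions had differences from -0.01 to 0.05, and the interaction with phase over 3 regions passed for 0 of the 7 members tested and for 0.13% of all genes. Within regions it passed for 0 members and for 0.0% of all genes in each region, and the members other than Cd68 in hippocampus ran from -0.21 to 0.20.

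Time of day was the third axis, and again 0 members passed an adjusted p of 0.05, in vehicle or in tumor mice. Of all genes, 2.34% passed in hippocampus of vehicle mice and 1.04% in that of tumor mice. The shares for vehicle and tumor mice were 0.26% and 1.04% for hypothalamus, and 1.3% and 0.78% for brain stem. Ctss in hippocampus of vehicle mice was nearest. Mid-dark mice 4, 8, 12, 28 and 32 had 10.42, 10.27, 10.27, 10.49 and 10.18, and mid-light mice 2, 6, 10, 22 and 30 had 10.59, 10.56, 10.59, 10.65 and 10.49. Only mouse 28 reached the lowest of the mid-light mice. The difference was -0.25 (standard error 0.07, unadjusted p = 0.0029, limma adjusted p = 0.077), and it passed without mouse 28 (adjusted p = 0.0361). It also passed without mouse 19 (adjusted p = 0.0321), a tumor mouse in neither group compared. Leaving that mouse out kept the difference at -0.25 and lowered the standard error to 0.06.

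Lgmn in the same mice differed by -0.17 (unadjusted p = 0.0328, limma adjusted p = 0.259). There 16.1% of all genes had an unadjusted p under 0.05, and 2 of 7 members did. Of the microglial markers, 6 of 13 had an unadjusted p under 0.05 in this comparison and 0 passed the adjusted threshold, with a median difference of -0.16. Their part in the Ctss and Lgmn values was not tested. The vehicle mid-dark mice are also the reference of the tumor difference at mid-dark, so the 2 comparisons share these samples. For Cd68, Ctss and Lgmn the tumor minus vehicle differences at mid-dark were 0.36, 0.07 and 0.10, and the mid-dark minus mid-light differences in vehicle mice -0.29, -0.25 and -0.17.

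The 15 other lysosomal genes gave 0 adjusted calls in any tumor, phase or interaction comparison. In hippocampus of vehicle mice 4 of the 15 had an unadjusted p under 0.05 by phase, and the median difference of the list was 0.03, against -0.09 for the 7 members.

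Cd68 was compared with every other gene by its correlation across samples, as a description. Over the 20 hippocampal samples, which share region and normalization but mix 4 groups, the genes most like Cd68 were Fcrlb (Pearson r = 0.63), Mef2c (0.61), Kdm4d (0.56), Anapc15 (0.55) and Man2b1 (0.55). Over all 56 samples with each region's mean subtracted, in which regions of 1 mouse are not independent, they were Slamf9 (0.46), Anapc15 (0.45), Man2b1 (0.44), Tyrobp (0.42) and Tubb3 (0.41). Man2b1 was the only member in both lists. The other members ranked lower over the hippocampal samples, from Lgmn (0.34) and Ctss (0.29) down to Lamp2 (-0.11) and Lamp1 (-0.30).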

How the data were processed

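RNA of 3 brain regions of 20 mice was assayed on the nCounter panel. The deposited values are log2, made by the authors in nSolver (negative background subtraction, positive control and codeset content normalization) and then quantile normalized over samples in Partek. The authors dropped outliers of the raw data before normalizing, and the brain stem of mouse 8 and the hypothalamus of mice 10, 12 and 32 were not analysed here. Counts were not used, so depth is unknown and the number of mice limits precision. Quantile normalization gave all samples nearly the same distribution (sample medians 8.07 to 8.09), so a value follows the gene's rank among 770 genes. Probe values were not compared between genes.

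Samples were grouped by their labels. Within each region limma 3.58.1 (R 4.3.3) fitted 4 group means, with Benjamini-Hochberg adjustment over all genes (1 constant gene left out in hippocampus and 1 in brain stem). Region differences used 1 fit of all samples, with mouse as a random block. Mouse numbers pair samples because the 3 regions came from the same animal, and the consensus correlation was 0.136. An adjusted p under 0.05 was a call. Steps were tested on simulated data. The study's methods used t tests and ANOVA on the same values.

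Alternatives were ordinary p values, only the groups compared, a mean log2 filter of 5, sample medians or 12 reference genes subtracted, quantile normalization within region, each mouse left out, and no or a fixed mouse block. The members and lists were chosen with earlier results of these data known. The genes named were all 8 members, up to 6 called genes of the lysosomal list per comparison by smallest p, and the 5 genes most correlated with Cd68. A gene of the lysosomal list is not reported here by name. The tests of tumor status, phase and their interaction on Cd68 in hippocampus were not used, nor were its tumor and interaction tests over 3 regions. Region tests of Cd68 were kept, although they use its hippocampal values. Promoters came from RefSeq (GRCm38.p6). Figures were drawn with matplotlib 3.10.9 in Python 3.11.15.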

Additional observations from a re-analysis of the deposited data

Results flagged for a closer look

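In 5 of 88 groups of member and sample group, 1 mouse was flagged as apart from the others of its group by Dixon's test. By chance it flags about 1 in 20 groups without tied values. Ctss in hippocampus of tumor mid-dark mouse 19 was 10.63, and the other 4 mice lay between 10.30 and 10.39. Lgmn in brain stem of tumor mid-light mouse 5 was 12.32, and the others lay between 12.52 and 12.59. Ctsf in brain stem of vehicle mid-dark mouse 12 was 11.08, and the others lay between 11.29 and 11.32. Lamp1 in brain stem was 13.68 in tumor mid-light mouse 9, with the others all at 13.61, and 13.50 in vehicle mid-dark mouse 32, with the others all at 13.55. In both Lamp1 groups the other mice were tied, so any different value was flagged, however small its distance.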

How the results depend on the processing

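Counts of members called kept within 1.5 times of the reported count under all alternatives but 3, each of them a left-out mouse that took 0 calls to 1: the count ranged from 0 to 1 over left-out mice for mid-dark minus mid-light in hippocampus of vehicle mice (1 without mouse 19 or mouse 28, Ctss) and for tumor minus vehicle over 3 regions (1 without mouse 11, Man2b1). Scaling by the reference genes had most effect on single values. Under it Grn for hippocampus minus hypothalamus went from -0.05 to 0.0422, Man2b1 for hippocampus minus brain stem from 0.04 to -0.0052 and Epg5 for hypothalamus minus brain stem from 0.13 to -0.0036; the first 2 were not called under either setting and Epg5 was not called under reference gene scaling; the cause was not tested. With no replicate block the differences of Cd68 between regions were 0.77, 0.57 and 0.20, and with mouse as a fixed block 0.77, 0.56 and 0.21, and the block changed no call of a member. The 3 to 5 mice per group limit what differences can be seen.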
